A study of Mus musculus with 15 samples.

Results

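Of the 23284 genes counted in the series, 10 are grouped here as targets of the transcription factor p53 linked to cell-cycle arrest and DNA repair. Cdkn1a, Btg2 and Sesn1 restrain growth or division. Gtse1 encodes a microtubule-associated protein, and Plk2 a kinase that acts in the duplication of centrioles. Rrm2b, Ddb2, Xpc and Polk act in DNA repair and its supply of nucleotides, and Ephx1 encodes an enzyme of detoxification. They were chosen by symbol and by known role, with earlier results of these data known. All 10 were found in the count table and passed the filter on low counts. All samples were mouse E14 embryonic stem (ES) cells, a line that renews itself in culture and keeps the capacity to form all lineages of the embryo. Cells were nucleofected with 5 nmol of an antisense oligonucleotide (ASO), either one against the retrotransposon LINE1 or a control called RC, and after 7 h received 100 pmol of an siRNA. RNA was taken on day 2 from the whole culture, without sorting for transfected cells. Each of 5 groups had 3 libraries. RC control had siControl after the RC ASO, RC siNcl an siRNA against Ncl after the RC ASO, and RC siDux an siRNA against Dux after the RC ASO. LINE1 control had siControl after the LINE1 ASO, and LINE1 siDux had the siRNA against Dux after it. Every group therefore had an ASO and an siRNA, and no untreated cells were included. Dux encodes a transcription factor that switches on genes of the early cleavage embryo, and Ncl encodes nucleolin, an RNA-binding protein of the nucleolus. The labels name no separate cultures for the 3 libraries of a group. P-values therefore reflect only how far these libraries spread, and that spread may be technical.

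p53 is held at a low level by the ubiquitin ligase Mdm2 and accumulates when DNA damage or disturbed ribosome production blocks Mdm2. It then binds response elements near its target genes and raises their transcription. Some targets stop the cell cycle, some kill the cell, some repair DNA or spare metabolites, and Mdm2 itself is a target that closes a feedback loop. A p53 response element is built of 10-base units close to the p53 consensus, and the form sought here was a pair of adjoining units. ES cells have abundant p53 protein and a short G1 phase, and p53 is known in them for a part in differentiation as well as in the response to damage.

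The windows around the annotated gene starts are shown first, and 2 of the 10 genes hold a near match to such an element there. RefSeq (GRCm38.p6) gave 11 windows, from 250 bases before to 50 bases after a start, for 7 of the 10 genes. They belong to Cdkn1a, Btg2, Gtse1, Plk2, Sesn1, Polk and Ephx1, which are also the genes called higher with siNcl and siDux. No window was found for Rrm2b, Ddb2 and Xpc. The search therefore could not set genes that rose against genes that did not. The strand of the gene was searched for the p53 consensus of 10 bases and for a pair of adjoining units (20 bases) with at most 1 mismatch in all. Both patterns read the same on the opposite strand, so the search covered it too. No pair without mismatch was found in these windows, and 1 pair with 1 mismatch was found for each of Cdkn1a and Gtse1. These 20-base sites are printed with their flanks on the strand of the gene, with the site in capitals. The Cdkn1a stretch lies at chr17:29090908-29090967 on the plus strand. Its site begins 51 bases before the first of the annotated starts and 2841 bases before the second. The Gtse1 stretch lies at chr15:85859940-85859969 on the plus strand, and its site begins 1 base before the second of the annotated starts.
Cdkn1a: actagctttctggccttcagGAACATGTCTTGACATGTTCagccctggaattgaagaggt
Gtse1: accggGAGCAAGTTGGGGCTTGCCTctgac
A 20-base site with at most 1 mismatch was found in 29 of all 32851 windows, which is 0.0883%. A single unit without mismatch was found in 4 of the 11 windows, 1 each of Cdkn1a, Gtse1, Sesn1 and Polk, and in 8.36% of all windows. The windows of Btg2, Plk2 and Ephx1 held neither. Pairs with bases between the units, or with more mismatches, were not sought. A match in letters is a description of the window and was not tied to binding by any measurement here.

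Library totals over genes ran from 9546481 to 27564371 counts, and the counts of the 10 genes from 77 to 7074 per library. RC control replicate 2 stood apart, with a TMM factor (the scaling factor for composition) of 0.874 against 0.965 to 1.07 in the other libraries. All 10 markers of ES cells were present, with a summed level of 4234 to 9340 CPM per library (counts scaled to a library total of 1000000). Markers of other cells were low, at 32.5 to 61.2 CPM in sum for fibroblasts, 99.0 to 244 CPM for trophoblast (mostly the keratin gene Krt8) and 8.33 to 24.5 CPM for primitive endoderm. The siRNA against Ncl left Ncl at 516 to 644 CPM, against 4532 to 6200 CPM in RC control. The other groups lay below RC control as well, by the sum of Ncl and Dux, which was nearly all Ncl. This sum was 3904 to 3961 CPM in RC siDux, 3437 to 4284 CPM in LINE1 control and 3221 to 3694 CPM in LINE1 siDux. Dux, whose repeated copies make its counts uncertain, had 1 to 4 counts per library in RC control and 0 to 5 in RC siDux, so knockdown was not detectable at this depth under RC ASO. In LINE1 control it had 18 to 25 counts and in LINE1 siDux 11 to 19.

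In RC control, levels per kilobase of exon were highest for Gtse1, with a group mean of 63.4 CPM per kb, followed by Plk2 at 18.8, Cdkn1a at 14.3 and Btg2 at 12.3 CPM per kb. Xpc had 9.66, Ephx1 6.88, Polk 5.19, Ddb2 4.89, Sesn1 3.92 and Rrm2b 2.06 CPM per kb. In RC siNcl the mean of Plk2 was 145 and that of Gtse1 144 CPM per kb, so that Plk2 had reached the level of the most abundant of the 10 genes. All fold changes that follow are within a gene and were tested with edgeR's quasi-likelihood model over all 15 libraries, with p-values adjusted by Benjamini-Hochberg over 14696 genes and a threshold of 0.05. Errors beside log2 changes are standard errors.

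**Figure D1:**
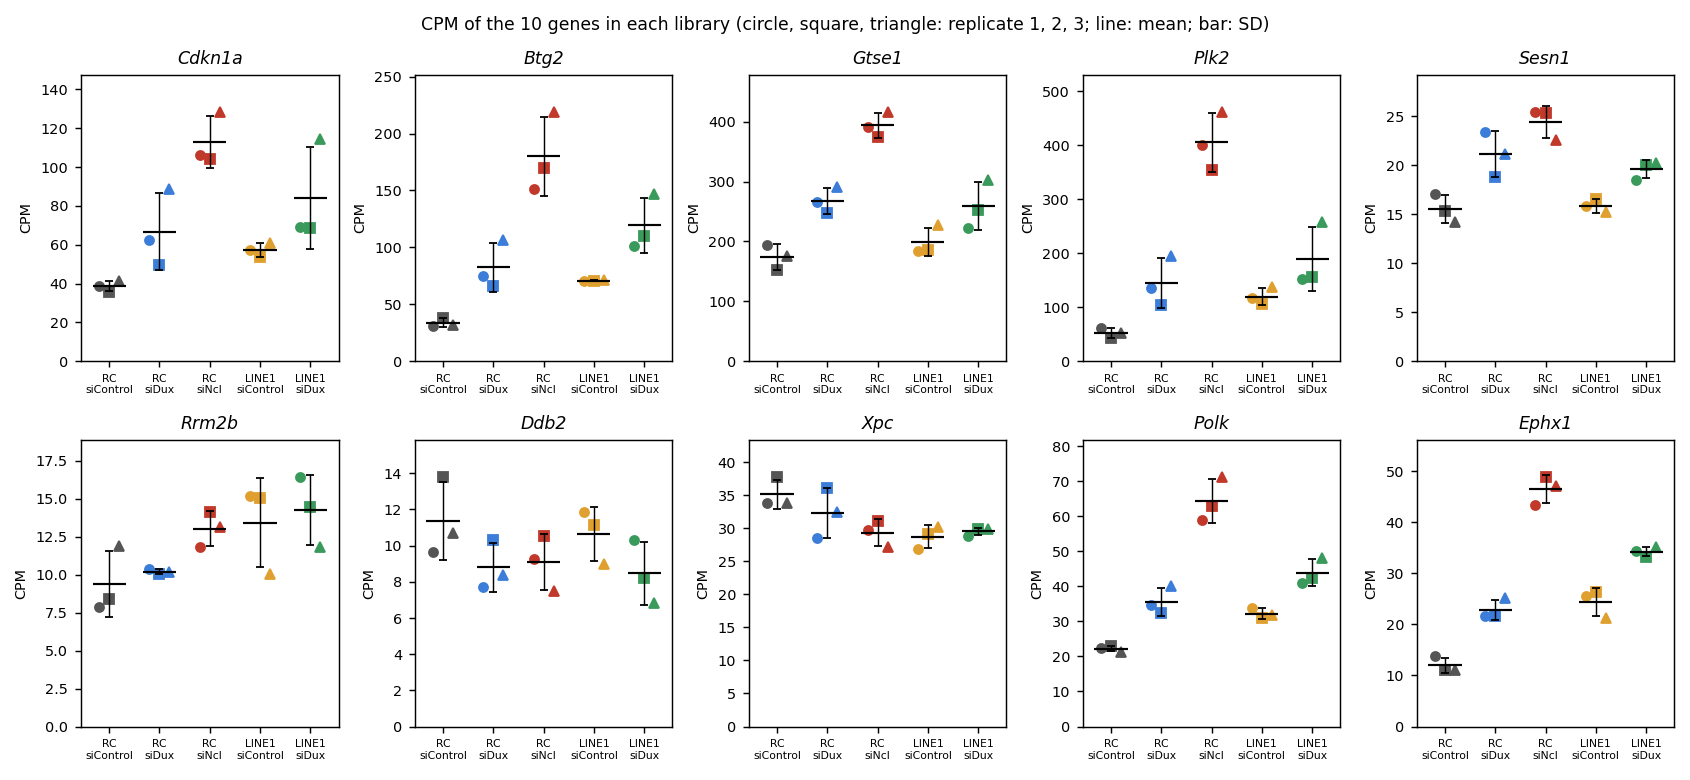
Level of each of the 10 genes (vertical axes, CPM, each starting at 0) in the 15 libraries, by group, with a circle, square and triangle for replicates 1, 2 and 3, a line for the group mean and a bar for the SD (n = 3). For Cdkn1a, Btg2, Gtse1, Plk2, Sesn1, Polk and Ephx1 the RC siNcl libraries all lie above the RC control libraries, whereas Ddb2 and Xpc show no such rise.

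Against RC control, siNcl raised 7 of the 10 genes and lowered none. Over all genes tested 16.7% were called higher in this comparison and 15.6% lower. The 7 genes were Cdkn1a, Btg2, Gtse1, Plk2, Sesn1, Polk and Ephx1, and their rises ran from 1.58-fold for Sesn1 to 7.71-fold for Plk2. Against the same control, siDux raised 7 and lowered none, again Cdkn1a, Btg2, Gtse1, Plk2, Sesn1, Polk and Ephx1, by 1.37-fold for Sesn1 to 2.76-fold for Plk2, where 6.09% of all genes were called higher and 4.5% lower. LINE1 ASO raised 4 and lowered none, Btg2, Plk2, Polk and Ephx1, where 9.35% of all genes were called higher and 9.69% lower. Rrm2b, Ddb2 and Xpc passed the test in none of these comparisons. The median log2 change of the 10 genes was 1.36 with siNcl, 0.66 with siDux and 0.52 with LINE1 ASO, and over all genes it was -0.01, -0.01 and 0.02. The 3 comparisons share the RC control libraries, so a library that is low there raises the change in all of them. In bulk RNA a change in the number of responding cells and a change in RNA per cell cannot be told apart.

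**Figure D2:**
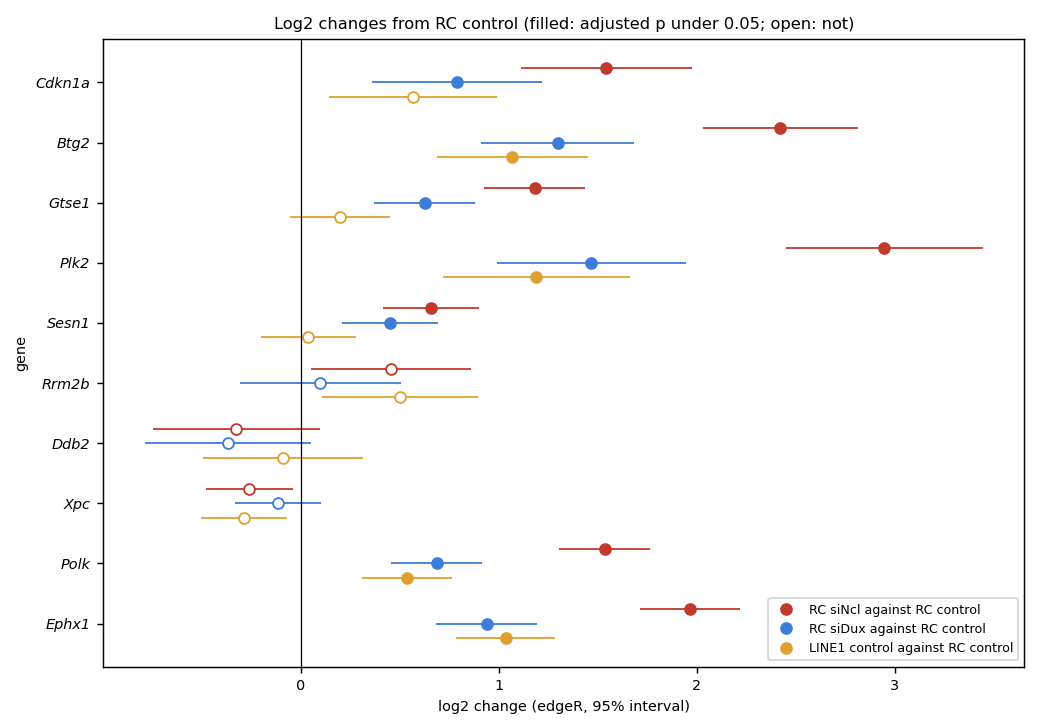
Log2 change from RC control (horizontal axis) of the 10 genes with siNcl, siDux and LINE1 ASO, with 95% intervals from the quasi-likelihood fit and filled points for adjusted p under 0.05. Plk2, Btg2 and Ephx1 lie farthest to the right with siNcl, and Ddb2 and Xpc lie at or below 0.

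Cdkn1a encodes p21, the inhibitor of cyclin-dependent kinases through which p53 halts cells in G1. Its 3 libraries stood at 39.0, 35.9 and 41.3 CPM in RC control and at 106, 104 and 128 CPM in RC siNcl. They stood at 62.4, 49.3 and 88.7 CPM in RC siDux and at 57.4, 53.8 and 61.1 CPM in LINE1 control. The RC control libraries lay below every library of the other groups, while LINE1 control and RC siDux overlapped. The rise was 2.91-fold with siNcl (log2 1.54 ± 0.20, adjusted p = 3.09e-05) and 1.73-fold with siDux (0.79 ± 0.20, adjusted p = 0.0217). With LINE1 ASO the log2 difference was 0.57 ± 0.20 (95% interval 0.14 to 0.99, adjusted p = 0.0587). The siDux call rested on single libraries, since without RC siDux replicate 3 it was 0.53 (adjusted p = 0.131) and without RC control replicate 2 it was 0.74 (adjusted p = 0.0578). The LINE1 value passed with DESeq2 (0.56, adjusted p = 0.0354) and in edgeR with the replicate number as a block (0.58, adjusted p = 0.00606). It also passed without a filter (0.57, adjusted p = 0.0415) and with a filter of 5 CPM in 3 libraries (0.61, adjusted p = 0.0459). In a fit of only the groups compared the LINE1 value passed too (0.57, adjusted p = 0.035), while the siDux value did not (0.80, adjusted p = 0.0826). Scaled to the ERCC spike-in RNAs the LINE1 value did not pass (0.75, adjusted p = 0.735). An annotated transcript on the opposite strand, AC167363.2, overlaps 273 exon bases of Cdkn1a in GENCODE M21, and whether counting used the strand is a point the sources used here do not give.

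Btg2 encodes an antiproliferative protein of the BTG/TOB family that promotes the shortening of mRNA poly(A) tails. Its libraries had 30.7, 38.1 and 32.3 CPM in RC control and 152, 169 and 219 CPM in RC siNcl. Among RC siDux libraries it had 74.8, 65.7 and 107 CPM, and in LINE1 control 70.2, 70.4 and 71.0 CPM. LINE1 control libraries thus lay within the range of RC siDux and above that of RC control. The rise was 5.36-fold with siNcl (log2 2.42 ± 0.19, adjusted p = 9.88e-08), 2.46-fold with siDux (1.30 ± 0.18, adjusted p = 0.000406) and 2.10-fold with LINE1 ASO (1.07 ± 0.18, adjusted p = 0.00177).

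Plk2 encodes a polo-like kinase that acts in the duplication of centrioles and is induced by p53. It changed most of the 10 genes in each of these 3 comparisons. RC control had 61.6, 43.6 and 52.6 CPM and RC siNcl had 400.3, 354 and 462 CPM. RC siDux had 136, 104 and 195 CPM and LINE1 control had 116, 106 and 137 CPM. Every treated library lay above the RC control range. The fold change was 7.71 with siNcl (log2 2.95 ± 0.23, adjusted p = 1.39e-07), 2.76 with siDux (1.47 ± 0.23, adjusted p = 0.000804) and 2.28 with LINE1 ASO (1.19 ± 0.22, adjusted p = 0.00331). Counted from the largest rise down, Plk2 ranked 95 among the 14696 genes with siNcl, 259 with siDux and 532 with LINE1 ASO.

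Gtse1 encodes a microtubule-associated protein of S and G2 phase that was described as p53-inducible in the mouse and that, in human cells, carries p53 out of the nucleus. The RC control libraries had 195, 152 and 175 CPM, those of RC siDux 267, 247 and 290.3 CPM and those of RC siNcl 390.4, 374 and 416 CPM. LINE1 control, at 184, 187 and 227 CPM, overlapped RC control. The rise was 2.27-fold with siNcl (log2 1.18 ± 0.12, adjusted p = 2.36e-06) and 1.54-fold with siDux (0.63 ± 0.12, adjusted p = 0.00412). With LINE1 ASO the log2 difference was 0.20 ± 0.12 (95% interval -0.06 to 0.45, adjusted p = 0.26).

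Sesn1 encodes a sestrin, one of the proteins that restrain the growth kinase complex mTORC1 under stress. The RC control libraries had 17.0, 15.3 and 14.3 CPM, those of RC siDux 23.4, 18.8 and 21.2 CPM and those of RC siNcl 25.4, 25.3 and 22.6 CPM. LINE1 control had 15.8, 16.6 and 15.2 CPM, within the RC control range. The rise was 1.58-fold with siNcl (log2 0.66 ± 0.11, adjusted p = 0.000396) and 1.37-fold with siDux (0.45 ± 0.11, adjusted p = 0.0203). The siDux call was lost without RC control replicate 3 (0.39, adjusted p = 0.0545), without RC siDux replicate 1 (0.38, adjusted p = 0.0939) and without RC siDux replicate 3 (0.45, adjusted p = 0.0687). It was also lost in a fit of only the groups compared (0.46, adjusted p = 0.136). With LINE1 ASO the log2 difference was 0.04 ± 0.11 (95% interval -0.20 to 0.28).

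Among the repair genes Polk was the one that rose. It encodes DNA polymerase kappa, which copies past damaged bases. RC control had 22.5, 22.9 and 21.4 CPM, RC siNcl 58.9, 62.9 and 71.1 CPM, RC siDux 34.6, 32.3 and 40.1 CPM and LINE1 control 33.9, 30.9 and 31.8 CPM. The RC control range lay clear of every other group. The rise was 2.90-fold with siNcl (log2 1.53 ± 0.11, adjusted p = 4.94e-08), 1.61-fold with siDux (0.68 ± 0.11, adjusted p = 0.00108) and 1.45-fold with LINE1 ASO (0.54 ± 0.11, adjusted p = 0.00511).

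Rrm2b encodes the p53-inducible small subunit of ribonucleotide reductase, which supplies deoxynucleotides for repair outside S phase. It was the least abundant of the 10 genes per kilobase in every group. Its libraries had 7.90, 8.42 and 11.9 CPM under RC control, 11.8, 14.1 and 13.2 CPM in RC siNcl, 10.4, 10.1 and 10.2 CPM in RC siDux and 15.2, 15.1 and 10.1 CPM in LINE1 control. Replicate 3 of RC control and of LINE1 control were the libraries that brought the groups to overlap. The log2 difference was 0.46 ± 0.19 with siNcl (adjusted p = 0.0773), 0.50 ± 0.19 with LINE1 ASO (adjusted p = 0.0684) and 0.10 ± 0.19 with siDux (adjusted p = 0.786). Without RC control replicate 3 it passed with siNcl (0.68, adjusted p = 0.0179) and with LINE1 ASO (0.73, adjusted p = 0.0177), and with LINE1 ASO also without LINE1 control replicate 3 (0.67, adjusted p = 0.0151). The antisense gene Gm49085 shares 260 exon bases with Rrm2b in GENCODE M21.

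Ddb2 encodes a subunit of the complex that finds ultraviolet lesions in chromatin, and its induction by p53 is known from human cells. It had 9.64, 13.8 and 10.7 CPM under RC control, 9.26, 10.6 and 7.48 CPM in RC siNcl, 7.73, 10.3 and 8.38 CPM in RC siDux and 11.8, 11.2 and 8.97 CPM in LINE1 control. All of these ranges overlapped that of RC control. The log2 difference was -0.33 ± 0.20 with siNcl (95% interval -0.75 to 0.09), -0.37 ± 0.20 with siDux (-0.79 to 0.05) and -0.09 ± 0.19 with LINE1 ASO (-0.49 to 0.31). These intervals exclude a rise as large as that of Sesn1 with siNcl. Ddb2 shares 621 exon bases with Acp2 on the opposite strand, so its counts may hold reads of Acp2.

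Xpc encodes the lesion-recognition protein that opens global-genome nucleotide excision repair, and it too is known as a p53 target from human cells. RC control had 33.8, 37.7 and 33.8 CPM, RC siNcl 29.7, 31.1 and 27.1 CPM, RC siDux 28.5, 36.1 and 32.4 CPM and LINE1 control 26.9, 29.2 and 30.2 CPM. The RC siNcl and LINE1 control libraries lay below all 3 of RC control. The log2 difference was -0.26 ± 0.10 with siNcl (adjusted p = 0.0636), -0.29 ± 0.10 with LINE1 ASO (adjusted p = 0.0574) and -0.12 ± 0.10 with siDux (adjusted p = 0.492). DESeq2 called the first 2 lower, at -0.27 (adjusted p = 0.048) and -0.29 (adjusted p = 0.0338).

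Ephx1 encodes microsomal epoxide hydrolase, which opens reactive epoxides before they bind DNA and protein. Its libraries had 13.7, 11.0 and 11.2 CPM under RC control, 43.4, 48.8 and 47.2 CPM in RC siNcl, 21.6, 21.7 and 25.1 CPM in RC siDux and 25.6, 26.3 and 21.3 CPM in LINE1 control. Each of these groups lay above RC control without overlap. The rise was 3.90-fold with siNcl (log2 1.96 ± 0.12, adjusted p = 9.92e-09), 1.92-fold with siDux (0.94 ± 0.12, adjusted p = 0.000247) and 2.05-fold with LINE1 ASO (1.03 ± 0.12, adjusted p = 6.68e-05).

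The position of siNcl above the other treatments was then tested without the RC control libraries. Against RC siDux, siNcl had 6 of the 10 genes higher and none lower, where 9.53% of all genes were called higher and 7.1% lower. They were Plk2 (log2 1.48 ± 0.22, adjusted p = 0.000238), Btg2 (1.12 ± 0.18, adjusted p = 0.000361), Ephx1 (1.03 ± 0.11, adjusted p = 1.39e-05), Polk (0.85 ± 0.10, adjusted p = 4.33e-05), Cdkn1a (0.75 ± 0.20, adjusted p = 0.0148) and Gtse1 (0.55 ± 0.12, adjusted p = 0.00443). Cdkn1a lost its call without RC siDux replicate 1 (0.70, adjusted p = 0.0612), without RC siDux replicate 2 (0.58, adjusted p = 0.0772) or without RC siNcl replicate 3 (0.65, adjusted p = 0.0726). For Sesn1 the log2 difference was 0.21 ± 0.11 (adjusted p = 0.23) and the libraries overlapped. Against LINE1 control, siNcl had 7 genes higher and none lower, where 10.4% of all genes were called higher and 9.45% lower. The differences ran from 0.62 ± 0.11 for Sesn1 (adjusted p = 0.00102) to 1.76 ± 0.22 for Plk2 (adjusted p = 4.83e-05), with Gtse1 at 0.98 ± 0.12 (adjusted p = 3.91e-05) and Ephx1 at 0.93 ± 0.11 (adjusted p = 3.31e-05). RC siNcl differed from LINE1 control in both ASO and siRNA. The median log2 difference of the 10 genes was 0.65 against RC siDux and 0.95 against LINE1 control, and over all genes it was 0.00 and 0.01.

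**Figure D3:**
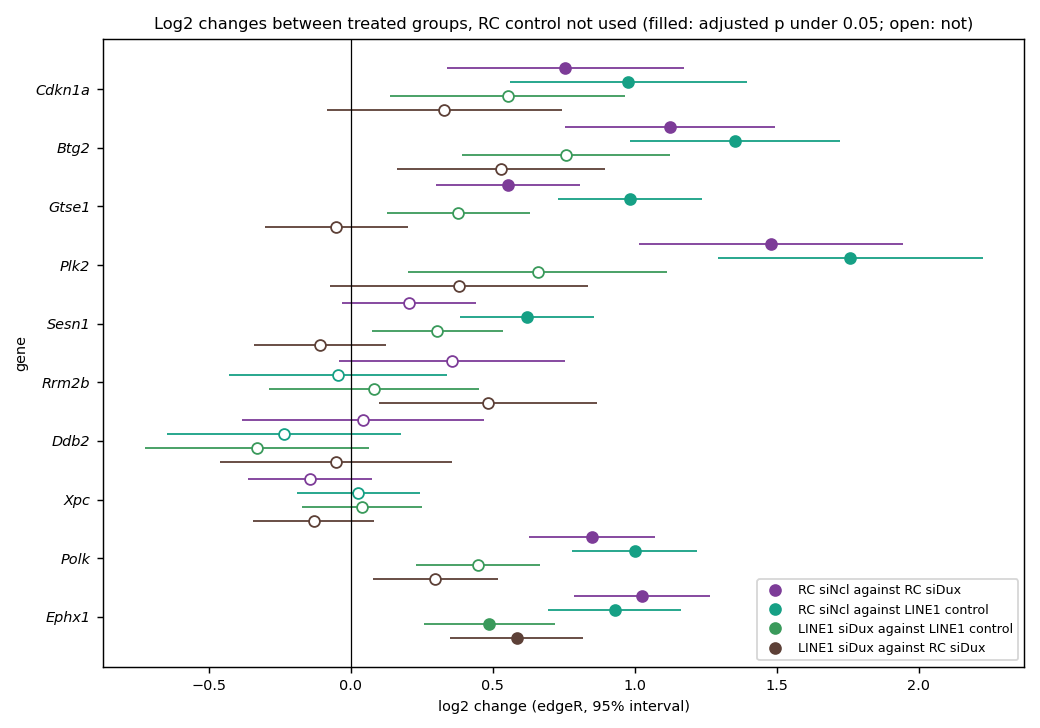
Log2 difference (horizontal axis) of the 10 genes in the comparisons that use no RC control library, with 95% intervals and filled points for adjusted p under 0.05. Values of siNcl against RC siDux and against LINE1 control are above 0 for Cdkn1a, Btg2, Gtse1, Plk2, Polk and Ephx1, and in the comparisons that involve LINE1 siDux the filled points are those of Ephx1.

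The effect of siDux was measured under LINE1 ASO as well. LINE1 siDux had 69.4, 68.9 and 114 CPM for Cdkn1a and 101, 110.0 and 147 CPM for Btg2. It had 153, 157 and 258 CPM for Plk2, 41.0, 42.5 and 48.2 CPM for Polk and 34.4, 33.3 and 35.1 CPM for Ephx1. All of these libraries lay above those of LINE1 control, as did those of Sesn1 (18.5, 20.1 and 20.3 CPM), so that 6 of the 10 genes were higher without overlap, where 11.8% of all genes were. By the test only Ephx1 was called, at 1.40-fold (log2 0.49 ± 0.11, adjusted p = 0.0483), where 0.544% of all genes were called higher and 0.306% lower. Btg2 stood at 0.76 ± 0.17 (adjusted p = 0.0512) and Polk at 0.45 ± 0.10 (adjusted p = 0.0521). Libraries with the same replicate number deviated together in this comparison, and with the replicate number as a block 6 genes were called, all higher, where 2.08% of all genes were called higher. Beside Ephx1 they were Btg2 (0.73, adjusted p = 0.00798), Polk (0.44, adjusted p = 0.0176), Plk2 (0.63, adjusted p = 0.0179), Cdkn1a (0.52, adjusted p = 0.0339) and Gtse1 (0.38, adjusted p = 0.0438). The call of Ephx1 in the unblocked fit was lost on leaving out any 1 of the 6 libraries compared, with values of 0.40 to 0.55 and adjusted p of 0.103 to 0.204.

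Between LINE1 siDux and RC siDux, which differ in the ASO, Ephx1 was again the gene called, at 1.5-fold (log2 0.58 ± 0.11, adjusted p = 0.0104), where 2.31% of all genes were called higher and 0.749% lower. Its call was lost without RC siDux replicate 1 (0.55, adjusted p = 0.0659) or replicate 2 (0.56, adjusted p = 0.0631). Btg2 differed by 0.53 ± 0.17 (adjusted p = 0.101), Rrm2b by 0.48 ± 0.18 (adjusted p = 0.148), Polk by 0.30 ± 0.10 (adjusted p = 0.123) and Gtse1 by -0.05 ± 0.12 (adjusted p = 0.844). The effect of siDux under LINE1 ASO minus that under RC ASO was tested as an interaction. None of the 10 genes was called in it with edgeR or with DESeq2, where edgeR called 0% of all genes in either direction. An unadjusted p under 0.05 was found for 3 of the 10 genes and for 3.34% of all genes. The differences were -0.81 ± 0.31 for Plk2 (unadjusted p = 0.0185), -0.54 ± 0.25 for Btg2 (unadjusted p = 0.0457) and -0.45 ± 0.16 for Ephx1 (unadjusted p = 0.0133), each with an adjusted p of 0.981.

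The order of the group means was much the same in the genes that rose. RC control was lowest and RC siNcl highest for Cdkn1a, Btg2, Gtse1, Plk2, Sesn1, Polk and Ephx1. For Cdkn1a, Btg2, Plk2 and Polk the groups between them stood in the order LINE1 control, RC siDux and LINE1 siDux. LINE1 control and RC siDux overlapped in each of these 4 genes and in Ephx1, where RC siDux had the lower mean (22.8 ± 1.98 CPM against 24.4 ± 2.72 CPM, SD, n = 3). LINE1 siDux and RC siNcl overlapped for Cdkn1a and were apart for Btg2, Plk2, Polk and Ephx1. For Gtse1 and Sesn1 the siDux groups lay next to each other and overlapped, and LINE1 control overlapped RC control. For Rrm2b RC control had the lowest mean and LINE1 siDux the highest, and RC siDux lay below RC siNcl without overlap. Ddb2 and Xpc had the reverse end, with RC control highest, and all neighbours in their orders overlapped.

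Replicate 3 stood high for several genes in both siDux groups and less clearly elsewhere. It held the highest value for 8 of the 10 genes in LINE1 siDux, 6 in RC siDux, 5 each in RC siNcl and LINE1 control and 2 in RC control. It held the lowest value for 2, 0, 3, 4 and 3 genes in these groups, in the same order. With all 5 replicate 3 libraries left out, an alternative chosen after the data were seen, 8 genes were called with siNcl, 6 with siDux under RC ASO and 6 with LINE1 ASO, all of them higher. Of all genes 14.2%, 2.66% and 14.4% were then called higher, against 16.7%, 6.09% and 9.35% with all libraries. What set replicate 3 apart was not tested.

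The log2 changes above are relative to the bulk of genes. Scaled to the ERCC spike-in RNAs, the median of all genes moved by 0.31 with siDux and by 0.22 with LINE1 ASO under siControl, by 0.03 with siNcl and by -0.27 for siNcl against siDux. Under that scaling siNcl raised Plk2, Btg2, Ephx1, Polk and Cdkn1a, siDux raised Plk2 and Btg2, and LINE1 ASO raised none. Of all genes 3.83%, 1.27% and 1.89% were then called higher. In these comparisons with RC control, the values of the genes that lost their calls were about as large as in the main scaling or larger. Their standard errors were larger, with a median over the 10 genes of 0.43 against 0.15 in each of these comparisons. With LINE1 ASO Plk2 and Btg2 each stood at 1.30 (adjusted p = 0.0923 and 0.0992) and Ephx1 at 1.19 (adjusted p = 0.172). With siDux Ephx1 stood at 1.18 (adjusted p = 0.224), Cdkn1a at 1.04 (adjusted p = 0.356) and Gtse1 at 0.87 (adjusted p = 0.549). The ERCC share of the gene total differed by replicate number, from 0.273% to 0.363% in the libraries of replicate 1 and from 0.423% to 0.652% in the others. Relative to the shifted median the changes with LINE1 ASO were 1.08 for Btg2 and Plk2 and 0.98 for Ephx1, close to those in the main scaling.

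The p53 pathway beyond these genes was described with lists of related genes. The counts of each list stand beside these shares of all genes called higher and lower. They were 16.7% and 15.6% with siNcl, 6.09% and 4.5% with siDux, and 9.35% and 9.69% with LINE1 ASO. Of 22 other p53 targets, 17 rose and none fell with siNcl (median log2 change 0.96), 13 rose and none fell with siDux (0.41), and 9 rose and 1 fell with LINE1 ASO (0.36). With siNcl the smallest p-values among them belonged to Apaf1, a core part of the apoptosome (2.02 ± 0.11), Trp53inp1, a p53-induced nuclear protein (2.18 ± 0.12), Mdm2 (2.55 ± 0.15) and Eda2r, a receptor of the TNF family (1.52 ± 0.12). With LINE1 ASO the same 4 genes led, with Trp53inp1 at 1.19 ± 0.12, Mdm2 at 1.17 ± 0.14, Eda2r at 0.74 ± 0.11 and Apaf1 at 0.70 ± 0.11. Mdm2 rose with siDux by 1.34 ± 0.14. The counts for siDux and LINE1 ASO leaned on single libraries, with 6 genes called without RC siDux replicate 3 and 5 without LINE1 control replicate 1. Of all genes 3.75% and 3.95% were then called. Under ERCC scaling 10, 3 and 2 genes of the list were called with siNcl, siDux and LINE1 ASO.

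**Figure D4:**
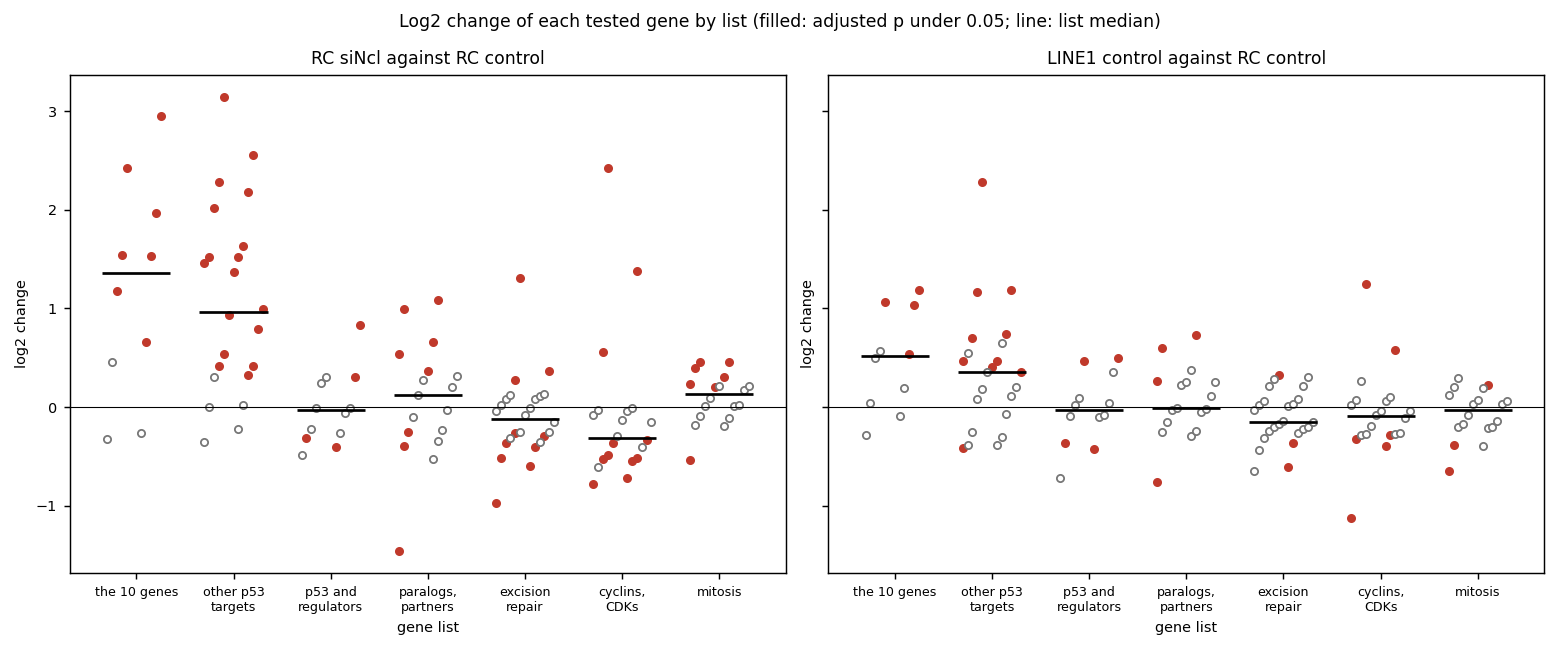
Log2 change (vertical axis) of each tested gene by list (horizontal axis), for RC siNcl against RC control and LINE1 control against RC control, with filled points for adjusted p under 0.05 and a line at each list's median. The medians of the 10 genes (1.36 and 0.52) and of the 22 other p53 targets (0.96 and 0.36) lie above 0, and the cyclins and CDKs have medians of -0.32 and -0.09.

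The mRNA of p53 itself, Trp53, differed by -0.01 ± 0.09 with siNcl (adjusted p = 0.965) and by -0.09 ± 0.09 with LINE1 ASO (adjusted p = 0.492), and it rose by 0.32 ± 0.09 with siDux (adjusted p = 0.0294). Of 12 genes that include Trp53 and its regulators, 2 rose with siDux, Trp53 among them, and none fell. The siDux count was 1 without RC control replicate 2, RC siDux replicate 1 or RC siDux replicate 3. Under ERCC scaling and in a fit of only the groups compared, none of the 12, and so not Trp53, was called with siDux. Of the same 12 genes, 2 rose and 2 fell with siNcl, and 2 rose and 2 fell with LINE1 ASO. The siNcl share was near that of all genes (16.7% higher and 15.6% lower), and it was 1 and 1 without RC control replicate 2, RC siNcl replicate 2 or RC siNcl replicate 3. Mdm4, the partner of Mdm2 that blocks p53, rose by 0.83 ± 0.11 with siNcl and by 0.47 ± 0.11 with LINE1 ASO. With siNcl the acetyltransferase gene Kat5 rose by 0.30 ± 0.09, and the checkpoint kinase genes Atr and Chek1 fell by 0.41 and 0.31 on the log2 scale. With LINE1 ASO the acetyltransferase gene Ep300 rose by 0.50 ± 0.15, and the ribosomal protein genes Rpl11 and Rpl5 fell by 0.42 and 0.37 on the log2 scale. With LINE1 ASO no gene of this list was called without LINE1 control replicate 1, and 1 rose and none fell without LINE1 control replicate 2 or RC control replicate 2.

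Of 18 paralogs and partners of the 10 genes, 17 were tested, and Btg3 was too low. With siNcl 5 rose and 3 fell. The translesion polymerase gene Rev1 rose by 1.08 ± 0.09, the sestrin gene Sesn3 by 0.99 ± 0.14, Btg1 by 0.66 ± 0.22, Plk3 by 0.53 ± 0.13 and Rrm2, the S-phase counterpart of Rrm2b, by 0.36 ± 0.08. Ephx2, the gene of soluble epoxide hydrolase, changed in the direction opposite to Ephx1 and fell by 1.46 on the log2 scale (SE 0.21), Plk1 fell by 0.39 (SE 0.11) and Rad23b, a partner of Xpc, fell by 0.26 (SE 0.07). The kinase inhibitor gene Cdkn1b, a paralog of Cdkn1a, had a log2 difference of -0.34 ± 0.18 (adjusted p = 0.151) and Cdkn1c one of 0.12 ± 0.12 (adjusted p = 0.484). Ddb1, the partner of Ddb2, had 0.20 ± 0.08 (adjusted p = 0.0539). With LINE1 ASO Btg1 (0.73 ± 0.22), Sesn3 (0.60 ± 0.14) and Rrm2 (0.26 ± 0.08) rose, and Cetn2, another partner of Xpc, fell by 0.76 (SE 0.22). With LINE1 ASO none of these partners was called without LINE1 control replicate 1, 1 rose without LINE1 control replicate 2 and 2 rose without RC control replicate 2. With siDux Plk3 rose by 0.82 ± 0.13, Rev1 by 0.38 ± 0.09 and Rrm2 by 0.29 ± 0.08, and Ephx2 fell by 1.13 (SE 0.21).

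The wider repair and cell-cycle lists held genes that rose and genes that fell. Over all genes 16.7% rose and 15.6% fell with siNcl, and 9.35% rose and 9.69% fell with LINE1 ASO. On leaving out single libraries, 22.2% to 33.8% of all genes were called with siNcl and 3.95% to 23.4% with LINE1 ASO. With LINE1 ASO the counts of excision repair and mitosis lay near the shares of all genes. Of 24 genes of nucleotide excision repair, 3 rose and 7 fell with siNcl, and 1 rose and 2 fell with LINE1 ASO. The endonuclease gene Ercc5 rose by 1.31 ± 0.11 with siNcl, while Rpa1, Lig1 and the damage-verification gene Xpa fell by 0.36, 0.52 and 0.98 on the log2 scale. With siNcl without RC siNcl replicate 3 the counts were 2 and 3. With LINE1 ASO none was called without LINE1 control replicate 1 or 2, and 2 rose and 5 fell without RC control replicate 1. Leaving out replicate 3 gave 1 and 5 for RC control and 1 and 4 for LINE1 control. Of 20 cyclins, cyclin-dependent kinases and pocket proteins, 3 rose and 8 fell with siNcl. The pocket protein genes Rb1 and Rbl2, which hold back E2F factors, rose by 2.43 ± 0.12 and 1.38 ± 0.14, and Pcna, the clamp of DNA replication, and Ccnd3 fell by 0.78 and 0.55 on the log2 scale. With LINE1 ASO 2 of this list rose and 4 fell, with Rb1 at 1.25 ± 0.12 and Rbl2 at 0.58 ± 0.14. These counts were 1 and 0 without LINE1 control replicate 1 and 1 and 1 without LINE1 control replicate 2. Of 18 genes of mitosis, 6 rose and 1 fell with siNcl, among them Cenpe (0.45 ± 0.08) and Hmmr (0.45 ± 0.08), whereas 1 rose and 2 fell with LINE1 ASO, where Hmmr fell by 0.39 (SE 0.08). Without RC siNcl replicate 1, 4 mitosis genes rose with siNcl and none fell, and without replicate 2 or replicate 3 it was 3 and none. With LINE1 ASO the mitosis counts were 0 and 1 on leaving out replicate 2 of RC control or replicate 1 or 2 of LINE1 control, and 2 and 5 on leaving out replicate 3 of LINE1 control.

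Some markers of ES cells fell with siNcl and with LINE1 ASO, and none fell with siDux. The summed level of all 10 was 5327 to 9340 CPM in RC control, 4324 to 5424 in RC siNcl, 5170 to 6326 in RC siDux and 4544 to 5005 in LINE1 control. RC siNcl and RC siDux thus overlapped RC control, and LINE1 control lay below it. Of the 10 markers, 4 fell with siNcl and 6 with LINE1 ASO, among them Pou5f1, the core pluripotency factor, by 0.68 and 0.65 on the log2 scale. With siDux 1 of the 10 rose. Over all genes 15.6% fell with siNcl, 9.69% fell with LINE1 ASO and 6.09% rose with siDux. Of the 5 primitive endoderm markers Gata6 (1.49 ± 0.50) and Dab2 (0.75 ± 0.24) rose with siNcl, with a summed list level of 8.33 to 17.1 CPM in RC control and 20.1 to 24.5 CPM in RC siNcl. Foxa2 of this list had lower values in all RC siNcl libraries than in RC control, with a log2 difference of -1.29 ± 0.68 (adjusted p = 0.158), while Sox17 (1.26 ± 0.56, adjusted p = 0.094) and Gata4 (0.16 ± 0.31, adjusted p = 0.735) overlapped. Gata6 rose with siDux as well (1.93 ± 0.48, adjusted p = 0.0193), and none of the 5 was called with LINE1 ASO. Krt7 of trophoblast (0.70 ± 0.20) and Pdgfra of the fibroblast list (1.40 ± 0.33) rose with siNcl, and Pdgfra rose with LINE1 ASO too (1.28 ± 0.32), while the fibroblast genes Dcn, Lum and Postn were at or near 0. Counts of the marker lists were not repeated under the alternative settings or on leaving out libraries. The part of these markers in the values of the 10 genes was not tested.

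The genes whose group means ran most like those of each of the 10 were sought among all tested genes, by the root mean square difference of centred log2 group means over the 5 groups. For Btg2 the nearest was Mdm2, at 0.05, followed by Trim7 at 0.06. For Plk2 they were Klf14 (0.09) and Cd109 (0.12), for Ephx1 Gpx3 (0.04) and Tek (0.05), and for Gtse1 Fam78b and Fam132a. Mcm3ap (0.03) and Duox2 (0.04) were nearest to Cdkn1a, and Tef (0.02) and Duox2 (0.03) to Polk. Bet1l and Ppl were nearest to Sesn1, Elovl7 and Heca to Rrm2b, Polr3gl and Dtx3 to Ddb2, and Rpp14 and 5730494N06Rik to Xpc. These distances describe 5 points that share their libraries.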

How the data were processed

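The authors deposited raw counts of reads per gene for 15 libraries. A table of counts per repeat was not used here. Per the labels' protocols, the libraries were built with the directional NEBNext Ultra kit for mRNA. The submitters' processing notes name Trim Galore 0.4.0, TopHat2 2.0.9 with the mm9 build, and DESeq2 1.12.3 in R 3.3.0. How counting treated strand and reads with several matches is a point that the sources used here do not give.

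Library sizes and tests excluded the 92 ERCC rows. The main test was the quasi-likelihood model of edgeR 4.0.16 (R 4.3.3) with TMM scaling and 1 term per group over all 15 libraries, which left 10 residual degrees of freedom. The filter filterByExpr kept 14696 genes. There were 8 comparisons, each with its own Benjamini-Hochberg adjustment, and the F statistic gave standard errors and 95% intervals. CPM are counts over the gene total after TMM. Lengths are unions of exons in GENCODE M21 on GRCm38, a later build than that of the counts, so no other coordinates are given. The model was tested on simulated data. Replicates differed beyond sampling noise, with a chi-square per degree of freedom of 3.1 to 51.3.

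The 10 genes and the lists were chosen with earlier results of these data known. Names given are the 10 genes, Trp53, Mdm2, Ncl, Dux, the paralogs and partners, up to 4 called genes per list with the smallest p with siNcl or LINE1 ASO, and the 2 genes most alike for each of the 10. Genes that overlap them, Foxa2, Sox17 and Gata4, and fibroblast and trophoblast genes near 0 or dominant in a sum, fall outside this rule and were named after their values were seen. Alternatives were RLE and ERCC scaling, no filter, a filter of 5 CPM in 3 libraries, a block for the replicate number, a fit of the compared groups, thinning to the smallest gene total, DESeq2 1.42.0 and leaving out each library. Deviations from group means correlated by over 0.1 between same-numbered libraries in all 3 pairs for siDux under RC ASO (0.186, 0.199 and 0.28), for siDux under LINE1 ASO (0.469, 0.28 and 0.556) and for siNcl against siDux (0.149, 0.265 and 0.356), and not in the others. What a number stands for is not stated in the labels.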

Additional observations from a re-analysis of the deposited data

How the results depend on the processing

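Counts were lowest for Rrm2b and Ddb2, with 77 and 87 in their lowest libraries. After thinning to the smallest gene total Rrm2b was called higher with siNcl (0.51, adjusted p = 0.0372) and with LINE1 ASO (0.53, adjusted p = 0.0493). Xpc was then called lower with siNcl (-0.29, adjusted p = 0.0454) and with LINE1 ASO (-0.36, adjusted p = 0.0329). The cause was not tested for either gene. Under ERCC scaling the number of the 10 genes called was 0 for LINE1 ASO under siControl, 2 for siDux under RC ASO, 0 for siDux under LINE1 ASO, 0 for LINE1 ASO under siDux, 0 for siNcl against siDux and 1 (Plk2) for siNcl against LINE1 control. Of all genes 1.91%, 1.34%, 0.0408%, 0.279%, 0.769% and 0.851% were then called in either direction, against 19.0%, 10.6%, 0.851%, 3.06%, 16.6% and 19.9% in the main fit. The standard errors were larger in that scaling (median over the 10 genes 0.43 against 0.15 for LINE1 ASO), while Plk2, Btg2 and Ephx1 stood at 1.30, 1.30 and 1.19 with LINE1 ASO. For siNcl against siDux the 6 genes called in the main fit had smaller values under ERCC scaling. Plk2 stood at 1.25, Btg2 at 0.87, Ephx1 at 0.76, Polk at 0.58, Cdkn1a at 0.51 and Gtse1 at 0.29. For siNcl against LINE1 control the 7 genes called in the main fit had smaller values too. For siDux under LINE1 ASO, 1 gene was called in the main fit, 3 with the filter of 5 CPM, 3 with DESeq2, 0 after thinning and 0 to 0 on leaving out libraries. The shares of all genes were 0.851%, 1.05%, 2.22%, 0.445% and 0.101% to 0.337%. With the replicate number as a block it was 6 (3.03% of all genes), and 2 for LINE1 ASO under siDux (8.36%), where leaving out libraries gave 0 to 3. The block left the counts of siDux under RC ASO (7) and of siNcl against siDux (6) as they were. The shares of all genes called rose from 10.6% to 16.7% and from 16.6% to 22.6%. In a fit of only the groups compared, 5 genes were called with siDux under RC ASO, where 1.8% of all genes were called. In the comparisons whose numbers did not pair, the block gave 8 for siNcl and 6 for LINE1 ASO under siControl. In each of these 2 comparisons 1 gene was lower, and it was Xpc. For siNcl against LINE1 control the block gave 7. Of all genes 38.3%, 26.6% and 26.8% were called with the block in these comparisons, against 32.4%, 19.0% and 19.9% in the main fit.

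Values that changed sign were not called under any of these settings, and for each of them the cause was not tested. Under ERCC scaling they were Ddb2 with LINE1 ASO (0.20), Xpc with siDux under RC ASO (0.18), Rrm2b (-0.018) and Xpc (-0.065) with siDux under LINE1 ASO, Sesn1 (-0.083) and Ddb2 (-0.21) for siNcl against siDux, Xpc for siNcl against LINE1 control (-0.11), and Ddb2 (-0.40) and Xpc (-0.25) in the interaction. After thinning they were Sesn1 (-0.028) and Ddb2 (0.023) with LINE1 ASO, Ddb2 with LINE1 ASO under siDux (0.088) and Rrm2b in the interaction (0.046), which the block put at 0.0015. On leaving out libraries, values with LINE1 ASO ran from -0.021 to 0.11 for Sesn1 and from -0.19 to 0.068 for Ddb2. With siDux under RC ASO, Rrm2b ran from -0.0082 to 0.33. With siDux under LINE1 ASO, Rrm2b ran from -0.083 to 0.21 and Xpc from -0.0054 to 0.075. With LINE1 ASO under siDux, Gtse1 ran from -0.16 to 0.047 and Ddb2 from -0.22 to 0.094. Ddb2 ran from -0.082 to 0.17 for siNcl against siDux. Against LINE1 control, Rrm2b ran from -0.229 to 0.043 and Xpc from -0.027 to 0.11. In the interaction, Cdkn1a ran from -0.52 to 0.020, Rrm2b from -0.30 to 0.10 and Ddb2 from -0.14 to 0.17.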
